A study of Danio rerio with 24 samples.

Results

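nfil3-5 (ENSDARG00000094965) and cry3a (ENSDARG00000069074) are 2 zebrafish genes of families that repress transcription in the circadian clock. They were taken by identifier from 32105 gene rows of liver RNA sequencing. nfil3-5 was selected on its measured counts in these fish, as a gene among the highest changes between the 2 rotenone concentrations. The contrast on which cry3a was selected is not recorded. Differences of both genes between the concentrations are therefore given as a description, with no test.

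The circadian clock is a loop of transcription in which the activators CLOCK and BMAL drive genes of their own repressors, the period and cryptochrome proteins. cry3a encodes a cryptochrome, also listed under the synonyms cry1ba and cry2a, of the kind that in zebrafish cells represses CLOCK and BMAL. nfil3-5 belongs to the family of NFIL3, a bZIP factor that in mammals represses genes with D-boxes, the sites at which DBP, TEF and HLF activate. In mouse liver, the ROR receptors activate the Nfil3 gene and the REV-ERB receptors repress it. Clock genes of the liver change with the time of day and with feeding, and zebrafish tissues also respond directly to light.

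Each of the 24 libraries was made from total liver RNA of 1 male. All fish carried a label of rotenone, an inhibitor of mitochondrial complex I, and no label names an untreated fish. At an age of 1 year, 9 males were labelled with 3.75 nM and 9 others with 37.5 nM. The other group was 6 males, 3 years old, at 37.5 nM. The 1-year fish were of strain AB JxTu, and the 3-year fish were AB JxTu Tg(flk:mCherry), so that age and the transgene cannot be told apart. The fish at 3.75 nM were deposited in one count table and the fish at 37.5 nM in another, so that concentration and deposited set cannot be told apart either. Fish numbers in the titles formed a lower series (163 to 181, 10 fish) and an upper series (189 to 202, 14 fish), and the labels do not say what separates them. The labels used here give neither the length of exposure nor the time of day of sampling.

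Library totals ranged from 24644663 to 45297644 counts. nfil3-5 had 110 to 4682 counts per fish and cry3a 8664 to 23026. Of the 10 hepatocyte markers, none was at 0, and none passed the threshold of edgeR or DESeq2 in any comparison, with 1 at an unadjusted p under 0.05 in 1 comparison. Across fish their summed level lay between 89800 and 283000 CPM, counts relative to the scaled library size. In 6 libraries (fish 166, 190, 192, 196, 198 and 200) markers of intestine were raised, with a mean log2(CPM + 1) above 2. All levels below are CPM with TMM scaling unless a length is named. In whole liver, fewer cells of a type and less RNA per cell cannot be told apart.

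nfil3-5 was low in the 1-year fish at 3.75 nM and high in most fish at 37.5 nM. At 3.75 nM, the 4 fish of the lower series had 31.3, 18.1, 14.8 and 28.5 CPM. The 5 fish of the upper series had 2.42, 10.6, 6.39, 13.7 and 19.7 CPM. In 1-year fish at 37.5 nM, the 4 fish of the lower series had 140.8, 68.7, 82.2 and 119.5 CPM. All 4 lay above every fish at 3.75 nM of either series. The 5 fish of the upper series had 42.4, 12.5, 47.9, 39.9 and 28.5 CPM. Of these, 4 lay above the 5 upper-series fish at 3.75 nM, and fish 199, with 12.5 CPM, lay within their range. The mean was 16.2 ± 9.49 CPM (SD, n = 9) at 3.75 nM and 64.7 ± 42.6 CPM (SD, n = 9) at 37.5 nM, a ratio of 4.005.

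In 3-year fish at 37.5 nM, nfil3-5 had 80.5 and 83.4 CPM in the 2 fish of the lower series. The 4 fish of the upper series had 20.6, 14.4, 8.41 and 66.7 CPM. The group mean was 45.7 ± 34.8 CPM (SD, n = 6), and its fish overlapped those aged 1 year at 37.5 nM, with fish 196 below all 9 of them.

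cry3a was abundant in every fish and varied less. At 3.75 nM, the lower series had 324.0, 468.6, 298.9 and 363.7 CPM. The upper series had 282.5, 349.8, 413.1, 615.4 and 450.0 CPM. In 1-year fish at 37.5 nM, the lower series had 667.5, 603.8, 678.4 and 588.7 CPM. The upper series had 588.6, 640.5, 615.5, 682.1 and 430.1 CPM. Of the 9 fish at 37.5 nM, 8 lay between 588.6 and 682.1 CPM, while at 3.75 nM 8 of 9 stayed below all of these. The exceptions were fish 192 at 3.75 nM, with 615.4 CPM, and fish 202 at 37.5 nM, with 430.1 CPM. The mean was 396.2 ± 104.5 CPM (SD, n = 9) at 3.75 nM and 610.6 ± 77.0 CPM (SD, n = 9) at 37.5 nM, a ratio of 1.54.

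In 3-year fish, cry3a had 681.3 and 416.7 CPM in the lower series and 388.4, 486.6, 392.7 and 449.9 CPM in the upper series. Fish 178, with 681.3 CPM, lay among the 1-year fish at 37.5 nM, and the other 5 lay below 8 of those 9 fish. The group mean was 469.3 ± 110.3 CPM (SD, n = 6).

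**Figure D1:**
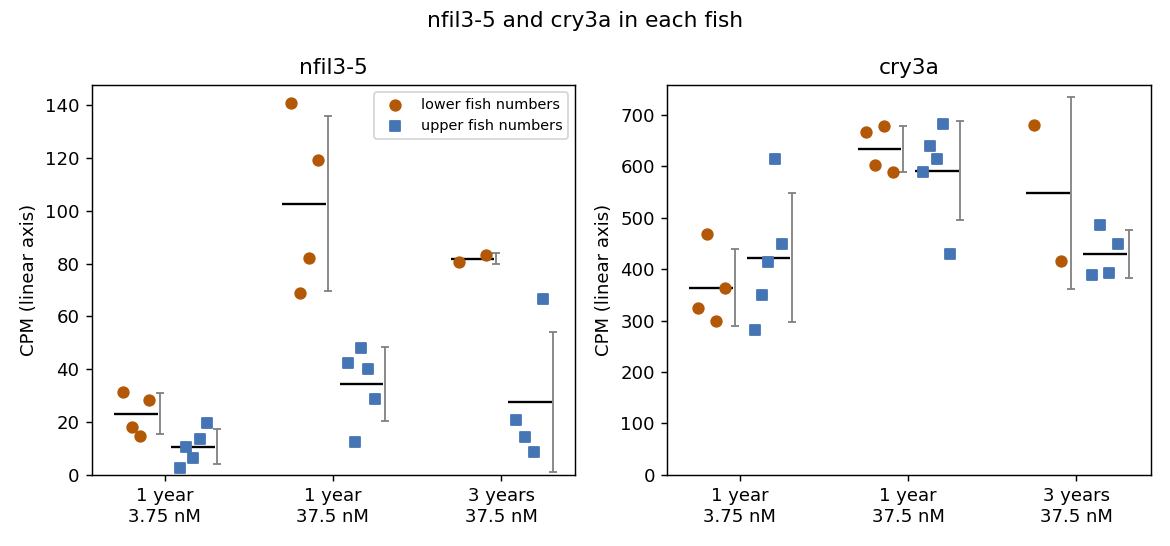
CPM of nfil3-5 (left) and cry3a (right) in each of 24 fish, by age and rotenone concentration, on linear axes from 0. Circles are fish of the lower and squares fish of the upper number series, black lines are means and grey bars are SD. nfil3-5 in 1-year fish at 37.5 nM reaches 140.8 CPM in the lower series and 47.9 CPM in the upper series, while cry3a does not separate the series.

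The first comparison set 37.5 nM against 3.75 nM in 1-year fish. The fitted log2 change was 2.08 ± 0.46 (SE) for nfil3-5 and 0.66 ± 0.16 for cry3a. It was positive in each number series, at 2.28 ± 0.30 in the lower and 1.73 ± 0.54 in the upper series for nfil3-5. For cry3a it was 0.91 ± 0.17 in the lower and 0.51 ± 0.23 in the upper series. Over all genes, edgeR's quasi-likelihood test with Benjamini-Hochberg adjustment called 11.4% of 15465 genes at a threshold of 0.05, 3.19% higher and 8.19% lower. The median log2 change of all genes was 0.03. Without the 1-year libraries with intestine markers, the log2 change was 2.09 for nfil3-5 and 0.75 for cry3a.

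A test of whether the concentration difference was unlike in the 2 number series did not pass the threshold for either gene. This interaction, upper minus lower, was -0.62 ± 0.67 (SE) on the log2 scale for nfil3-5 (edgeR adjusted p = 0.632). It was -0.45 ± 0.31 for cry3a (edgeR adjusted p = 0.412). The same test called 6.33% of 17217 genes, 1.76% positive and 4.57% negative. nfil3-5 was selected on its change between concentrations in these same fish, and cry3a may have been. The interaction p-values of both genes are therefore no independent test.

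The second comparison set 3-year against 1-year fish at 37.5 nM, and shares its 9 one-year fish with the first. nfil3-5 was selected partly on those fish, and cry3a may have been, which by itself favours a fall at 3 years. The p-values of both genes in this comparison are therefore no independent test. nfil3-5 had a log2 change of -0.53 ± 0.56 (SE), which did not pass the threshold (edgeR adjusted p = 0.648). cry3a had a log2 change of -0.41 ± 0.14, with an edgeR p of 0.00936 and an adjusted p of 0.127. In this comparison 1.72% of 16159 genes were called, 0.897% higher and 0.823% lower. For cry3a the call depended on the tool and on 1 fish. DESeq2 gave -0.42 with an adjusted p of 0.0357, and edgeR without fish 178 gave -0.54 with an adjusted p of 0.0441. Within series, the cry3a difference was -0.26 ± 0.22 in the lower and -0.49 ± 0.18 in the upper series, and neither passed (edgeR adjusted p = 0.599 and 0.256).

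The third comparison set the upper against the lower number series over all 24 fish, with group in the model. nfil3-5 fell by 1.39 ± 0.32 (SE) on the log2 scale in the upper series (edgeR adjusted p = 0.00894), while cry3a differed by -0.02 ± 0.14 (adjusted p = 0.949). nfil3-5 was selected on counts of the 1-year fish among these, and cry3a may have been. The p-values of both genes here are therefore no independent test either. The call rate was 13.2% of 17282 genes, 4.49% higher and 8.66% lower. The mean of nfil3-5 was 2.20 times as high in the lower as in the upper series at 3.75 nM, 3.00 times in 1-year fish at 37.5 nM and 2.97 times in 3-year fish. The series did not overlap in either group at 37.5 nM. At 3.75 nM, 2 of the 4 lower-series fish lay above all 5 upper-series fish. Fitted in each group alone, the difference was -1.02, -1.55 and -1.55 on the log2 scale in the same order, and none passed (edgeR adjusted p = 0.206, 0.111 and 0.710). Without the 6 libraries with intestine markers it was -1.53 over all groups (adjusted p = 0.0419).

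Within a fish, nfil3-5 as a percentage of cry3a CPM was also lower in the upper series. In 1-year fish at 37.5 nM it was 16.2% ± 5.18 (SD, n = 4) in the lower and 5.88% ± 2.31 (SD, n = 5) in the upper series. At 3.75 nM it was 6.57% ± 2.65 (SD, n = 4) and 2.405% ± 1.36 (SD, n = 5). In 3-year fish it was 15.9% ± 5.79 (SD, n = 2) and 6.31% ± 5.84 (SD, n = 4). This ratio was chosen after the values were seen and shares its numerator with the nfil3-5 difference, so it is no separate evidence.

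From fish to fish within groups, no correlation between the 2 genes was shown. With group means removed, log2 CPM gave a Pearson r of 0.318 and a Spearman rho of 0.230 over 24 fish. Permutation within groups gave p = 0.156 and 0.291, and 0.291 for both after adjustment over the 2 measures. Without fish 189 and 199, the farthest from the median of nfil3-5, r was 0.246. Within the lower series r was 0.192 (n = 10), and within the upper series it was 0.445 (n = 14).

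Levels of different genes are compared per kb of gene length, taken approximately from the ratio of the counts to the deposited RPKM values. Among the 8 cryptochrome rows, cry3a was the highest in every fish, at 100.9 ± 27.1 CPM per kb (SD, n = 24). Its closest relative by name, cry3b (ENSDARG00000091131), followed at 20.5 ± 7.15 CPM per kb. One CRY1 row (ENSDARG00000045768) had 17.8 ± 3.76 CPM per kb and did not separate from cry3b, which was higher in 17 of 24 fish. The other CRY1 row (ENSDARG00000011583) had 7.77 ± 5.52 CPM per kb, and cry4 had 6.62 ± 2.52, and each was the higher in 12 of 24 fish. CRY2, which carries the older name cry3, had 4.27 ± 1.58 CPM per kb. cry5, a photolyase relative, had 2.45 ± 1.42 CPM per kb and cry-dash 2.13 ± 0.85, and these did not separate. cry3a made up 61.2% ± 4.90 (SD, n = 9) of the summed cryptochrome level per kb at 3.75 nM, 64.6% ± 2.67 (n = 9) in 1-year fish at 37.5 nM and 59.0% ± 3.76 (n = 6) in 3-year fish.

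Among the nfil3 rows, the order per kb varied between fish. Over all fish, nfil3-6 (ENSDARG00000087188) had 19.5 ± 10.8 CPM per kb (SD, n = 24), nfil3-5 had 9.61 ± 8.59 and NFIL3 (ENSDARG00000042977) had 3.64 ± 2.90. nfil3-6 was above nfil3-5 in 19 of 24 fish. nfil3-5 made up 11.4% ± 5.25 (SD, n = 9) of the summed level per kb of these 3 rows at 3.75 nM. In 1-year fish at 37.5 nM its share was 38.6% ± 18.9 (SD, n = 9), with 55.4% ± 11.9 (n = 4) in the lower and 25.1% ± 9.96 (n = 5) in the upper series. In 3-year fish it was 35.7% ± 22.8 (SD, n = 6). The share is computed from the nfil3-5 level on which the gene was selected, so its difference between concentrations is no separate evidence. nfil3-4 had 9 counts over all fish. RefSeq lists nfil3-3 as a neighbour of nfil3-5, but no row of the tables was matched to nfil3-2 or nfil3-3, so that reads shared with these copies cannot be assessed.

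**Figure D2:**
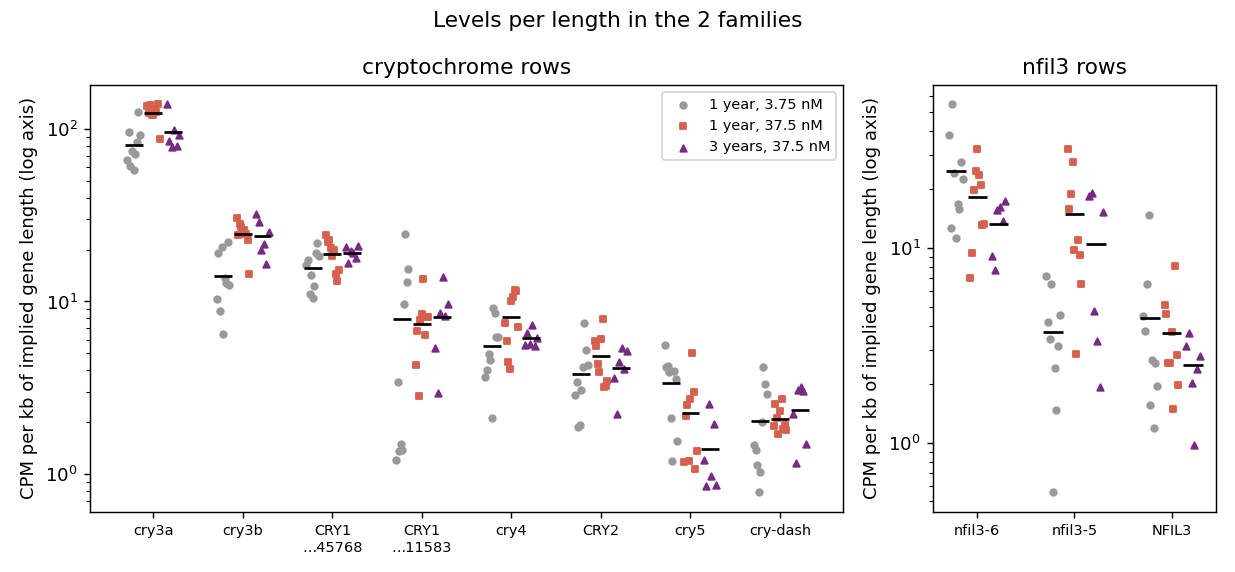
Level per fish in CPM per kb of implied gene length, on log axes, for the cryptochrome rows (left) and the nfil3 rows (right), by group, with group means as black lines. cry3a lies above cry3b in all 24 fish, while nfil3-5 lies below nfil3-6 in 19 of 24 fish.

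Other family members did not all move with the members. In the comparison of concentrations, cry3b rose by 0.86 ± 0.22 (SE) on the log2 scale (edgeR adjusted p = 0.0189), from 57.3 to 101 CPM. The other cryptochrome rows did not pass over both series. In the lower series alone, both CRY1 rows, CRY2 and cry-dash rose by 0.72 to 1.64 and cry5 fell by 1.22 on the log2 scale (edgeR adjusted p from 0.00692 to 0.0208). That fit also called far more of all genes than the fit over both series. In the upper series alone none of these rows passed. Their log2 changes there were 0.01 for CRY1 ENSDARG00000045768, -0.50 for CRY1 ENSDARG00000011583, 0.006 for CRY2, -0.32 for cry-dash and 0.12 for cry5. NFIL3 and nfil3-6 had log2 changes of -0.17 ± 0.43 and -0.39 ± 0.32, which did not pass. Between number series, cry3b had a log2 change of -0.26 ± 0.18 and did not pass, and NFIL3, at -0.91 ± 0.32, did not pass either. CRY1 (ENSDARG00000011583) rose by 1.62 ± 0.40 and cry4 by 0.59 ± 0.19 in the upper series (edgeR adjusted p = 0.0118 and 0.0441). The call of cry4 was lost in 14 of 24 fits that left out 1 fish.

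The wider clock was read from 9 lists of clock and clock-linked genes without the 2 members, with 82 rows. Between concentrations, 9 of 75 tested rows rose and 1 fell, which is 13.3% beside 11.4% of all genes. Of all genes, 3.19% were called higher and 8.19% lower. Among the activators, which pair to drive the repressors, CLOCK (ENSDARG00000011703) rose by 1.42 ± 0.34 (SE) on the log2 scale and BMAL1 (ENSDARG00000035732) by 0.86 ± 0.20 (edgeR adjusted p = 0.0143 and 0.0119). A second BMAL1 row (ENSDARG00000006791) rose by 0.55 ± 0.17 (adjusted p = 0.0406). The other 3 of 6 activator rows did not pass. Among them were the other CLOCK row and bmal2, another partner of CLOCK, at -0.61 ± 0.48. Of 7 tested rows in the D-box list, only the activator hlfa passed, rising by 0.79 ± 0.23. The median log2 change of that list was -0.30. Of 6 tested rows in the nuclear receptor list, only rorca passed, and it rose. SIK1, a kinase induced by cAMP, rose by 1.59 ± 0.38, the only call among 14 tested cAMP and fasting-linked rows. NR3C1, the glucocorticoid receptor, rose by 0.66 ± 0.17, the only call among 9 glucocorticoid-linked rows. NAMPT (ENSDARG00000030598), an enzyme of NAD synthesis, fell by 0.99 ± 0.27, the only call among 12 tested output genes. The median log2 change of the 75 tested clock rows was 0.18, beside 0.03 for all genes. Without the libraries with intestine markers, 5 rows rose and 1 fell. Both BMAL1 rows (edgeR adjusted p = 0.0604 for ENSDARG00000035732) and rorca no longer passed. CLOCK, hlfa and NR3C1 passed narrowly, with edgeR adjusted p of 0.0494, 0.0485 and 0.0496. With number series as a covariate, 11 of 75 rows rose and 2 fell. In the lower series alone 25 rose and 3 fell, in a fit that also called far more of all genes than the fit over both series. The share of all genes is not given here with the covariate or without the libraries with intestine markers. None of these counts is read as particular to the clock genes. In the upper series alone no gene of the whole table passed in edgeR, with 1218 at an unadjusted p under 0.05.

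In the same comparison, 4 of 6 tested erythrocyte markers rose in edgeR, beside 3.19% of all genes. Without the libraries with intestine markers 2 of 6 rose, and DESeq2 over all libraries called 5 of 6 higher. The summed level of the erythrocyte markers was 51.3 to 121 CPM at 3.75 nM and 76.0 to 597 CPM in 1-year fish at 37.5 nM. Of the markers of lymphocytes and NK cells, none of 6 tested rows was called by edgeR or DESeq2, with 0 at an unadjusted p under 0.05, and their sum was at most 22.5 CPM in 1-year fish. Neither list had a marker at 0 in all fish. Their part in the changes of the clock genes was not tested.

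Between ages, 0 of 75 clock rows passed in edgeR, beside 1.72% of all genes, with 17 at an unadjusted p under 0.05. DESeq2 called 4 rows, all lower in 3-year fish, and it also called more of all genes than edgeR did. With number series as a covariate, edgeR called more of all genes than without it, and 2 of 76 clock rows. These were g6pc1a.1, an enzyme of glucose release, at -0.99 ± 0.22 (SE) and NR3C1 at 0.47 ± 0.11 on the log2 scale (edgeR adjusted p = 0.0292 and 0.0331). The share of all genes is not given here for DESeq2 or with the covariate. Neither count is read as particular to the clock genes. The lowest edgeR p in the lists was that of sgk1, a kinase induced by glucocorticoids, with a log2 change of -1.44 ± 0.36 (SE), a p of 0.00106 and an adjusted p of 0.0535. Markers of lymphocytes and NK cells summed to 8.40 to 78.7 CPM in 3-year fish and 3.68 to 22.5 CPM in 1-year fish at 37.5 nM. Of 8 tested rows of that list, 0 passed in edgeR, 5 had an unadjusted p under 0.05 and DESeq2 called 2 higher. Their part in the age differences was not tested.

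Between number series, 13.2% of all genes were called, 4.49% higher and 8.66% lower in the upper series. Of the 77 tested clock rows, 18.2% were called, as 11 rose and 3 fell. Those that fell, as nfil3-5 did, were bmal2 by 1.64 ± 0.26 (SE) on the log2 scale, rorcb with a log2 change of -1.104 ± 0.26 and the BMAL1 row ENSDARG00000006791 by 0.40 ± 0.11. bmal2 is a partner of CLOCK, and rorcb belongs to the ROR receptors. PER1 (ENSDARG00000056885), a period repressor, rose by 1.97 ± 0.35, and the D-box activators dbpb and tefb rose by 1.38 ± 0.37 and 1.21 ± 0.25. PPARGC1A, a coactivator of fasting metabolism, rose by 1.64 ± 0.46. The adjusted p of these 7 rows in edgeR lay below 0.05. The other BMAL1 row and the other PER1 row did not pass. bmal2 had 4.86 to 22.2 CPM in the lower and 1.12 to 5.09 CPM in the upper series, so that the series overlapped in their extremes. Without the libraries with intestine markers, 3 of 76 tested clock rows rose and 3 fell. Fewer of all genes were called as well, but their share is not given here for that fit. The count is not read as particular to the clock genes. bmal2, rorcb, PER1, dbpb and tefb were still called, and NFIL3 was now called, with a log2 change of -1.26 (edgeR adjusted p = 0.0468). CRY1 ENSDARG00000011583 and cry4 no longer passed (adjusted p = 0.0540 and 0.158). The BMAL1 row ENSDARG00000006791 and PPARGC1A no longer passed either. Among erythrocyte markers, hbaa1 and hbaa2 rose by 0.92 ± 0.24 and 2.78 ± 0.46 (SE) in the upper series, 2 of 6 tested rows. The median sum of that list in the lower and upper series was 76.0 and 110 CPM at 3.75 nM, 165 and 277 CPM in 1-year fish at 37.5 nM, and 363 and 290 CPM in 3-year fish. il2rb of the lymphocyte list and pecam1a of the endothelium list rose too, but not without the libraries with intestine markers. Exocrine pancreas markers, 0 of 10 called by edgeR or DESeq2 and 0 at an unadjusted p under 0.05, had median sums of 14000 and 1160 CPM in the lower and upper series at 3.75 nM. The part of these markers was not tested. The time of day of sampling is not in the labels, and its part was not tested.

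**Figure D3:**
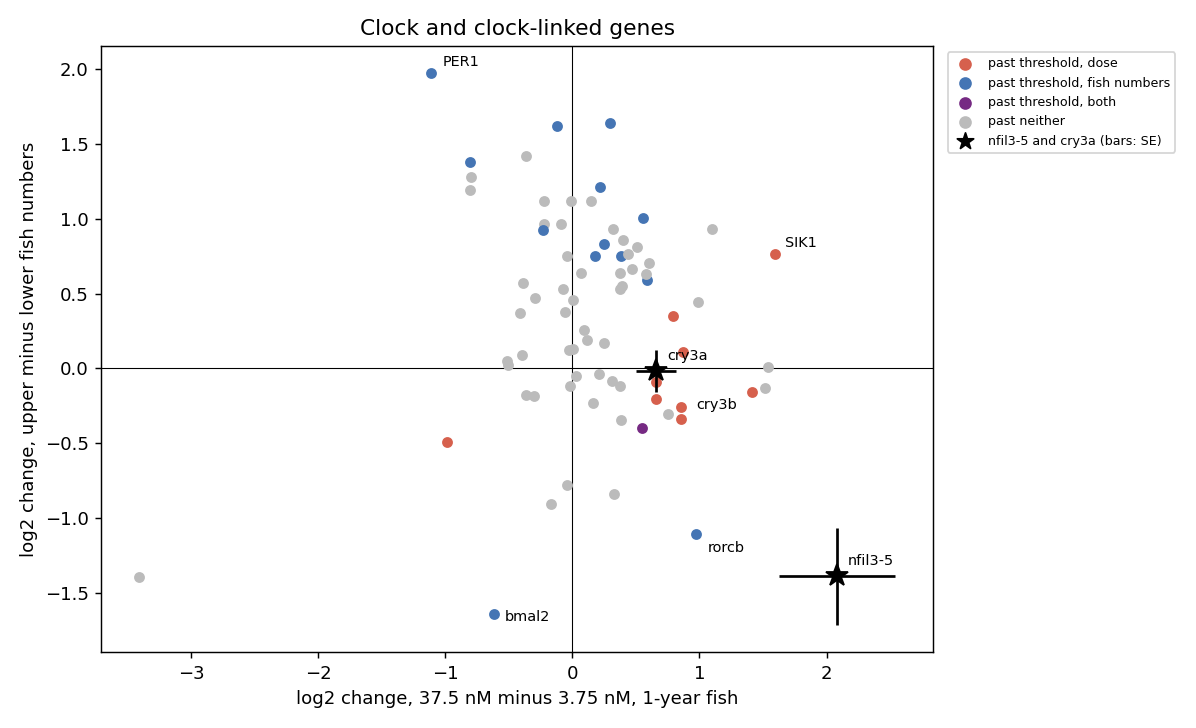
Log2 change of each tested clock or clock-linked gene between 37.5 and 3.75 nM in 1-year fish (x axis) and between the upper and lower number series (y axis), coloured by the comparisons in which it passed the edgeR threshold. Stars are nfil3-5 and cry3a with their SE, which are not coloured by a call: nfil3-5 stands at 2.08 and -1.39, and cry3a at 0.66 and -0.02.

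The concentration difference was unlike between series for 4 of 77 clock rows (5.19%, beside 6.33% of all genes, 1.76% positive and 4.57% negative). None of these 4 rows was a cryptochrome or an nfil3 row. They were NR3C1, the KLF11 row ENSDARG00000013794, IGFBP1 and igfbp1b. Without the libraries with intestine markers, the calls of these 4 were lost (edgeR adjusted p from 0.0752 to 0.142). DESeq2, over all libraries, called 8 of 77 rows, and it also called more of all genes than edgeR did. The share of all genes is not given here for DESeq2. The call of NR3C1 was also lost without fish 166, 167, 173, 175 or 177 (adjusted p up to 0.0723), and that of KLF11 without fish 163, 166, 167, 174 or 175 (up to 0.0671).

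The genes most like each member were sought among 9364 genes with a symbol and a mean of at least 4 CPM, by Pearson r of log2 CPM over 24 fish with group means removed. All values share the libraries and their scaling, and are a description. For nfil3-5 the highest was rorcb (r = 0.783), followed by RAN, the GTPase of nuclear transport (0.763), and WEE1, a kinase that restrains entry into mitosis (0.736). si:ch73-22o12.1 (0.723) and SND1 (0.722) came next. The lowest were GNAI2 (ENSDARG00000017294, -0.759), ROBO2 (-0.741) and hbaa2, an alpha globin (-0.730). cry3a ranked 1778 for nfil3-5. With the means of the number series also removed, si:dkey-5i3.5 led at 0.807. rorcb then ranked 7 with r = 0.677, and the other 4 were also no longer among the 5 highest.

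rorcb is shown beside nfil3-5 because it led this order. At 3.75 nM rorcb had 63.4, 66.8, 57.0 and 109.2 CPM in the lower series and 15.5, 15.1, 10.01, 36.0 and 32.9 CPM in the upper series, with no overlap. In 1-year fish at 37.5 nM it had 142.5, 87.6, 84.7 and 115.2 CPM in the lower and 81.8, 58.4, 84.6, 64.2 and 34.9 CPM in the upper series. In 3-year fish it had 98.6 and 101.7 CPM in the lower and 51.7, 26.4, 45.9 and 120.0 CPM in the upper series. Fish 197, the highest of its 4 upper-series 3-year fish for rorcb, was also the highest of them for nfil3-5. Between concentrations rorcb had a log2 change of 0.98 ± 0.38 (SE) and did not pass the threshold. With number series as a covariate it was 1.16 ± 0.27 and passed (edgeR adjusted p = 0.0101).

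For cry3a the highest was DNAJB12 (ENSDARG00000087473, r = 0.809), a chaperone of the endoplasmic reticulum. Also among the 5 highest were LPIN2 (0.800), a phosphatidate phosphatase, cry3b (0.780) and OSER1 (0.762). The lowest were GAR1, a protein of small nucleolar particles (-0.760), HGH1 (-0.742) and ARRB2 (ENSDARG00000011545, -0.739). Of the clock genes named here, CRY1 (ENSDARG00000045768) followed cry3b at 0.633, and nfil3-5 stood at 0.318. With the means of the number series also removed, cyp27a1.1, an enzyme of bile acid synthesis, led at 0.914, and cry3b ranked 15 at 0.803.

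cry3b had 42.3, 77.5, 36.1 and 84.0 CPM in the lower and 26.3, 55.7, 52.4, 90.6 and 50.6 CPM in the upper series at 3.75 nM. In 1-year fish at 37.5 nM it had 124.3, 99.6, 114.1 and 111.0 CPM in the lower and 100.7, 105.8, 100.4, 92.5 and 58.9 CPM in the upper series. Fish 192, high for cry3a at 3.75 nM, was also the highest there for cry3b, and fish 202 was the lowest of its group for both. In 3-year fish cry3b had 131.3 and 117.2 CPM in the lower and 81.0, 88.0, 67.6 and 103.0 CPM in the upper series. Its mean there, 98.0 ± 23.7 CPM (SD, n = 6), lay close to the 101 ± 18.3 CPM (SD, n = 9) of 1-year fish at the same concentration. The difference between cry3a and cry3b in the age comparison was not tested.

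**Figure D4:**
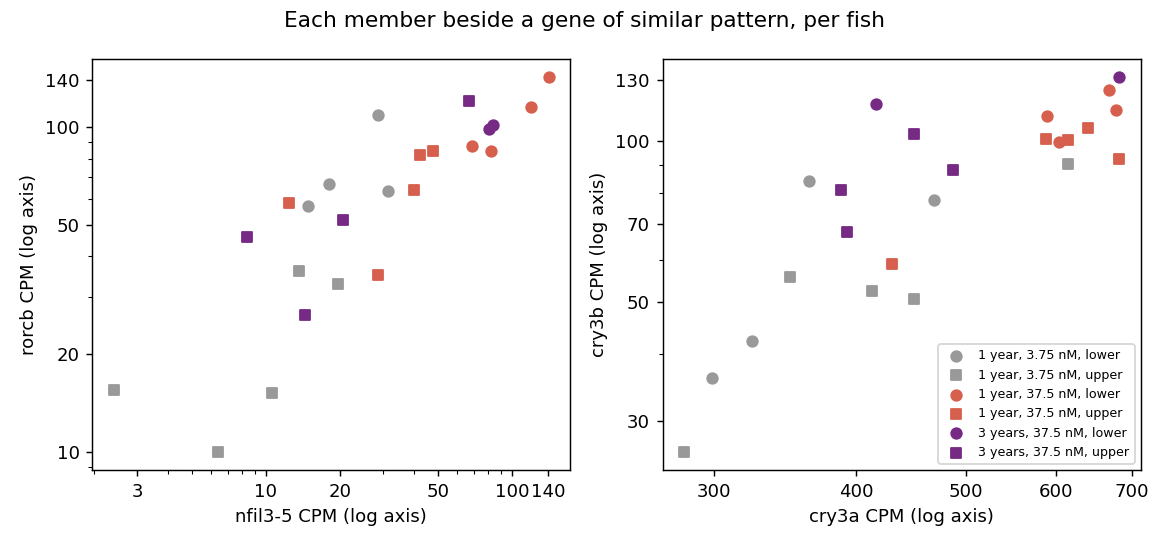
CPM per fish on log axes of nfil3-5 against rorcb (left) and cry3a against cry3b (right), the pairs with r of 0.783 and 0.780 after group means were removed. Colours are groups, and circles and squares are the lower and upper number series.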

How the data were processed

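The deposited values were raw counts per gene. The submitters' processing notes name CASAVA 1.8.2, STAR 2.4.1d, featureCounts 1.4.6-p4 and the genome build GRCz10. Libraries were made with a TruSeq RNA v2 kit, per the labels' protocols. Whether strand was used in counting is not given in the sources used here. The deposited RPKM values were used only to estimate gene lengths, because their divisors do not line up with the library columns.

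The 2 count tables were joined by gene identifier, and symbols came from the RefSeq reference table (26269 of 32105 rows). Low counts were removed by filterByExpr, TMM factors scaled the libraries, and edgeR 4.0.16 gave two-sided quasi-likelihood tests (limma 3.58.1, R 4.3.3), with Benjamini-Hochberg adjustment over all genes tested and a threshold of 0.05. The biological coefficient of variation was 0.510 to 0.563. Alternatives used other scaling, no filter, DESeq2 1.42.0, subsets of fish and all fish in 1 fit. The fits were tested on simulated data. Correlations used 100000 permutations in Python 3.11.15. Fish of a group differed by a chi-square of at least 123 per gene, so none repeated another.

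The members, gene lists and comparisons were chosen with earlier results of these data known. Named genes were every cryptochrome and nfil3 row, up to 6 list genes with the lowest p in each fit, and the 5 highest and 3 lowest correlations for each member. One gene that the rule picked is not reported here. A few list genes outside this rule are named after their values were seen. Replicates are separate fish.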

Additional observations from a re-analysis of the deposited data

Results flagged for a closer look

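Of 87 pairs of a named gene and a group, 13 had 1 fish far from the others by Dixon's criterion, under which chance flags about 1 in 20 groups. Both members were among them. cry3a was low in fish 202 of the 1-year fish at 37.5 nM, at 430.1 CPM with the next fish at 588.6 CPM, and cry3b was low in the same fish at 58.9 CPM. cry3a was high in fish 178 of the 3-year fish, at 681.3 CPM with the next at 486.6 CPM. No value of nfil3-5 was set apart in this way.

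Fish 167 at 3.75 nM was high for NFIL3 (30.04 CPM) and bmal2 (22.2 CPM). Among 1-year fish at 37.5 nM, cry5 was high in fish 199 (12.5 CPM), sgk1 in fish 173 (466.9 CPM), and igfbp1b (21.9 CPM) and IGFBP1 (241.9 CPM) in fish 177. Among 3-year fish, fish 181 was high for CLOCK ENSDARG00000011703 (9.82 CPM), igfbp1b (81.9 CPM) and IGFBP1 (405.2 CPM), and fish 195 was high for KLF11 ENSDARG00000013794 (142.9 CPM).

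The concentration difference was unlike in the 2 number series for 4 named genes, by the edgeR interaction test over all genes. The log2 difference, upper minus lower, was -1.07 for NR3C1, -4.16 for igfbp1b, -3.77 for IGFBP1 and -2.64 for KLF11 ENSDARG00000013794. All 4 calls were lost without the libraries with intestine markers, and those of NR3C1 and KLF11 in 5 of 18 fits that left out 1 fish. Neither member passed that test, which for them is not independent of how they were selected.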

How the results depend on the processing

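No paired analysis was possible because no fish number is shared between groups. The nfil3-5 log2 change between concentrations ranged from 1.84 to 2.23, and that of cry3a from 0.61 to 0.78, when 1 fish was left out. The series difference of nfil3-5 ranged from -1.60 to -1.30 and passed in all 24 such fits and under all scalings, but within single groups it was -1.02, -1.55 and -1.55 and did not pass. These fits share the fish on which nfil3-5 was selected and are no independent test. The cry3a age difference ranged from -0.54 to -0.38 when 1 fish was left out, and passed without fish 178 and in DESeq2 (-0.42). Of the series value of cry3a (from -0.09 to 0.06 when 1 fish was left out), no direction can be given. Interactions ranged from -0.87 to -0.27 for nfil3-5 and from -0.57 to -0.24 for cry3a, and the age difference of nfil3-5 from -0.79 to -0.32. The correlation of the members was 0.382 with library size alone (adjusted p = 0.0767).

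Counts of called genes moved more. Between concentrations they were 909 to 2518 with 1 fish left out, 1131 without the filter, 2706 in DESeq2, 5291 in the lower series alone and 0 in the upper series alone (edgeR, with 1218 genes at an unadjusted p under 0.05). The drops came without fish 163 (954), 165 (1104), 166 (917) or 167 (909). Between ages they were 115 to 559 with 1 fish left out, 1196 in DESeq2, 540 with series as a covariate, and 13 and 30 in the lower and upper series alone. Leaving out fish 195 gave 559, fish 196 gave 115, fish 197 gave 139 and fish 198 gave 167. Between series they were 1450 (without fish 163) to 2943, 1285 with library size alone, 3579 in DESeq2, and 5 and 1 in the 1-year and 3-year fish at 37.5 nM alone. For the interaction they were 516 to 2048, 680 without the filter and 2048 in DESeq2. Without fish 189 it was 2048, and without fish 173, 174, 175, 177, 166, 167, 192 or 193 it was 516 to 710. Leaving out libraries with intestine markers, an alternative chosen after seeing the data, gave 43 for age, 553 for series and 80 for the interaction. The cause was not tested. Of the alternative values of other named genes that had been called, 448 kept the call and 72 lost it, none reversed. Of 90 gene and comparison pairs not called, 34 were called under at least 1 alternative, 4 of them with series as a covariate (rorcb and PER1 between concentrations, g6pc1a.1 and NR3C1 between ages).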
